A study of Mus musculus with 8 samples.

Results

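The genes described here are 32 genes of the type I interferon response, chosen by name from the count tables of 8 mouse skin epidermis libraries, which list 54838 genes. Each has a row in every table, and 30 of the 32 passed the filter on low counts and were tested among 17839 genes. Ifit3 and Ifit3b did not pass, with 39 and 31 counts summed over the 8 libraries. The study compared trypsin-isolated epidermis from mice of 2 genotypes, control and Ovol1/2 iDKO, at 25 DPI and at 52 DPI by RNA sequencing, with 2 libraries labelled as biological replicates in each of the 4 groups: control at 25 DPI, iDKO at 25 DPI, control at 52 DPI and iDKO at 52 DPI. The targeted genes Ovol1 and Ovol2 code for zinc finger factors that restrain transcription in epithelial cells. What iDKO and DPI stand for, the strain, the age, the floxed alleles, the Cre driver, and any agent that the controls received as well were stated in none of the sources used here, and neither was whether a library holds 1 animal or a pool. The libraries held 9824307 to 50711381 counts.

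Type I interferons are secreted proteins that bind the receptor pair IFNAR1 and IFNAR2. The kinases JAK1 and TYK2 then activate STAT2, which enters the nucleus with IRF9 in a complex that binds the interferon-stimulated response element in the promoters of many genes. The products of these genes sense viral nucleic acids, block viral replication, or adjust the response itself. Keratinocytes, the main cells of the epidermis, both make and answer such interferons, and a low response in skin without infection is known.

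The 32 genes fall into 4 regulators (Irf7, Irf9, Stat2, Usp18), 6 sensors (Ddx58, Ifih1, Dhx58, Tlr3, Zbp1, Trim25) and 22 effectors, 20 of them tested. The promoter windows of RefSeq, 250 bases before to 50 bases after a transcript start on GRCm38.p6, covered 24 of the 32. The core of the interferon-stimulated response element, searched as GAAANNGAAA on both strands, stood in the windows of 12 of these 24 genes (50%) and of 1079 of the 27025 genes in the table (3.99%). The 12 were Ifih1, Ddx58, Isg15, Oas3, Oas1a, Bst2, Stat2, Rsad2, Eif2ak2, Ifit3, Ifit3b and Ifit1. The core of the gamma-activated sequence, TTCNNNGAA, searched likewise, stood in 6 of 24 (25%) and in 9.55% of all genes in the table. A match is a run of letters and not a shown site of binding. The 250 bases before the start are printed for 4 genes that differ in role and in the behaviour described below: Stat2 as a subunit of the factor that binds the element, Bst2 and Isg15 as effectors of high level, and Ifit1 as a low one. Each runs 5′ to 3′ on the strand of its gene, and capitals mark the response element core. The windows are chr10:128270248-128270497 (plus strand, Stat2), chr8:71537473-71537722 (minus strand, Bst2), chr4:156200819-156201068 (minus strand, Isg15) and chr19:34640639-34640888 (plus strand, Ifit1).
Stat2: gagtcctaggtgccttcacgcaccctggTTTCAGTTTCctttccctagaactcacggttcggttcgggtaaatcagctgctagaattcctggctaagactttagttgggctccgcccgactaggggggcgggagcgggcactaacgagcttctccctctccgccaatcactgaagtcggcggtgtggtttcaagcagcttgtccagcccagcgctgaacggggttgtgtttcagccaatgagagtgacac
Bst2: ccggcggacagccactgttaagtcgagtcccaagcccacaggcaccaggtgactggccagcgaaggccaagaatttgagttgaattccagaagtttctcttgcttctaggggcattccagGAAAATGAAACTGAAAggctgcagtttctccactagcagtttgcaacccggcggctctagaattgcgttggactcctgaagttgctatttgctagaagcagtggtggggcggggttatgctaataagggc
Isg15: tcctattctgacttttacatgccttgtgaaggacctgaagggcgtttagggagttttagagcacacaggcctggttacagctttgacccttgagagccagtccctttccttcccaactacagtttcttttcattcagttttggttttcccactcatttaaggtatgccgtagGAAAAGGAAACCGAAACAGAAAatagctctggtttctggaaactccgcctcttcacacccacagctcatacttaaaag
Ifit1: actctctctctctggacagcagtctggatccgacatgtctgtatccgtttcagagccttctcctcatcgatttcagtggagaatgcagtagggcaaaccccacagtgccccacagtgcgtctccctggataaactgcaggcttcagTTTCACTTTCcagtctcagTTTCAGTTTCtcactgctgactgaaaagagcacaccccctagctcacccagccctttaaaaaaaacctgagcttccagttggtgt
The core began 222 bases before the start in Stat2. Bst2 held 2 overlapping cores, beginning 130 and 124 bases before the start, and Isg15 held 3, beginning 78, 72 and 66 bases before it. Ifit1 held 2 separate cores, beginning 104 and 85 bases before the start.

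Several facts of the libraries bear on the values that follow. The replicate 2 libraries had 95.4% to 95.7% of their strand-assigned counts on the second strand, against 49.8% to 49.97% in replicate 1. The replicate numbers thus mark different kinds of library. Where 1 library is left out below, its group held 1 kind only, and the fit had no term for the replicate number. Ovol1 was higher, not lower, in the libraries labelled iDKO in all 4 pairs of the same time and number, at 134.9 against 148.1 counts scaled to a library of 1000000 (CPM), 36.3 against 204, 62.7 against 99 and 157 against 194. Ovol2 went from 24.9 to 44.6, 11.6 to 16.7, 21.3 to 22.3 and 7.52 to 9.16 CPM in the same pairs. Total reads over a gene need not show a deleted exon, so these values do not check the genotype, and the groups are named by their labels. Transcripts of 4 Y-linked genes were counted in the 25 DPI libraries and not in the 52 DPI libraries, and Xist the other way round apart from 2 to 6 counts, so time and sex cannot be told apart. The keratinocyte markers summed to 27530 to 53620 CPM, so the defining markers of the labelled tissue were present. Of 5 listed markers of the plasmacytoid dendritic cell, a main producer of interferon, Siglech had no count in any library and the summed level was 674 to 5843 CPM, of which Ly6d, also a gene of keratinocytes, gave 570 to 5714 CPM; the list includes the member Bst2. The control 25 DPI replicate 1 library stood apart, with T cell markers at 636.5 CPM against 64.4 to 396 in the others and melanocyte markers at 356 CPM against 28.9 to 44. In bulk epidermis fewer expressing cells and less RNA per cell cannot be told apart.

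The interferons themselves were near or at 0. Of 19 ligand genes, 16 had no count in any library, among them Ifnb1. A count of 0 allows up to 3 counts, which is 0.0596 to 0.342 CPM per library, and these limits cover counting error only. The other 3 had few counts: Ifnk, the interferon kappa of keratinocytes, had 11 counts over the 8 libraries and at most 0.228 CPM, Ifnab had 8 and Ifnl2 had 1. The receptor genes were present. Ifnar1 measured 26.2 and 55 in control against 29.4 and 55.7 CPM in iDKO at 25 DPI, and 65.4 and 50.5 against 57.7 and 54.7 CPM at 52 DPI. Its groups overlapped at both times, and the log2 fold change across both times was 0.01 (SE 0.345). Ifnar2 measured 21.6 and 7.09 in control against 29.7 and 27.4 CPM in iDKO at 25 DPI, and 14.4 and 9.17 against 23.9 and 14.9 CPM at 52 DPI. It was higher in the library labelled iDKO in all 4 pairs and the groups did not overlap at either time. Its log2 fold change across both times, 0.86 (SE 0.406), did not pass the test (unadjusted p = 0.066, adjusted p = 1, edgeR).

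Measured per kilobase of exon, the 32 genes spanned a mean of 17.9 CPM per kilobase for Bst2, which encodes tetherin, to 0.088 for Ifit3b. Next after Bst2 came Ifi35 at 14.2, Irf9 at 13, Trim25 at 12.9, Usp18 at 9.98, Isg15 at 9.41 and Stat2 at 8.43 CPM per kilobase. The effectors Mx2 (0.585), Ifit1 (0.579), Cmpk2 (0.558), Oas3 (0.478), Mx1 (0.232), Oas2 (0.198), Ifit2 (0.154), Oasl1 (0.136), Ifi44 (0.117) and Rsad2 (0.115) lay at the low end. Other effectors lay higher, among them Isg20 at 5.77, Eif2ak2 at 5.51, Oas1a at 3.36 and Oasl2 at 2.75 CPM per kilobase. Of the 31 pairs of neighbours in this order, 30 differed by no more than the larger of their SDs over the 8 libraries, the exception being Dhx58 (1.09) above Mx2. Bst2 alone ran from 6.53 to 44.7 CPM, and replicate 1 was its higher library in all 4 groups. The means cover both kinds of library, whose difference went with exon length as given below, so the order may differ between the kinds. Rsad2, which encodes viperin, had at most 1.04 CPM and no count in the iDKO 25 DPI replicate 1 library. Oasl1 had no count in 3 of the 8 libraries and at most 1.31 CPM. Cmpk2, a mitochondrial nucleotide kinase gene next to Rsad2, ran from 0.981 to 3.82 CPM.

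**Figure D1:**
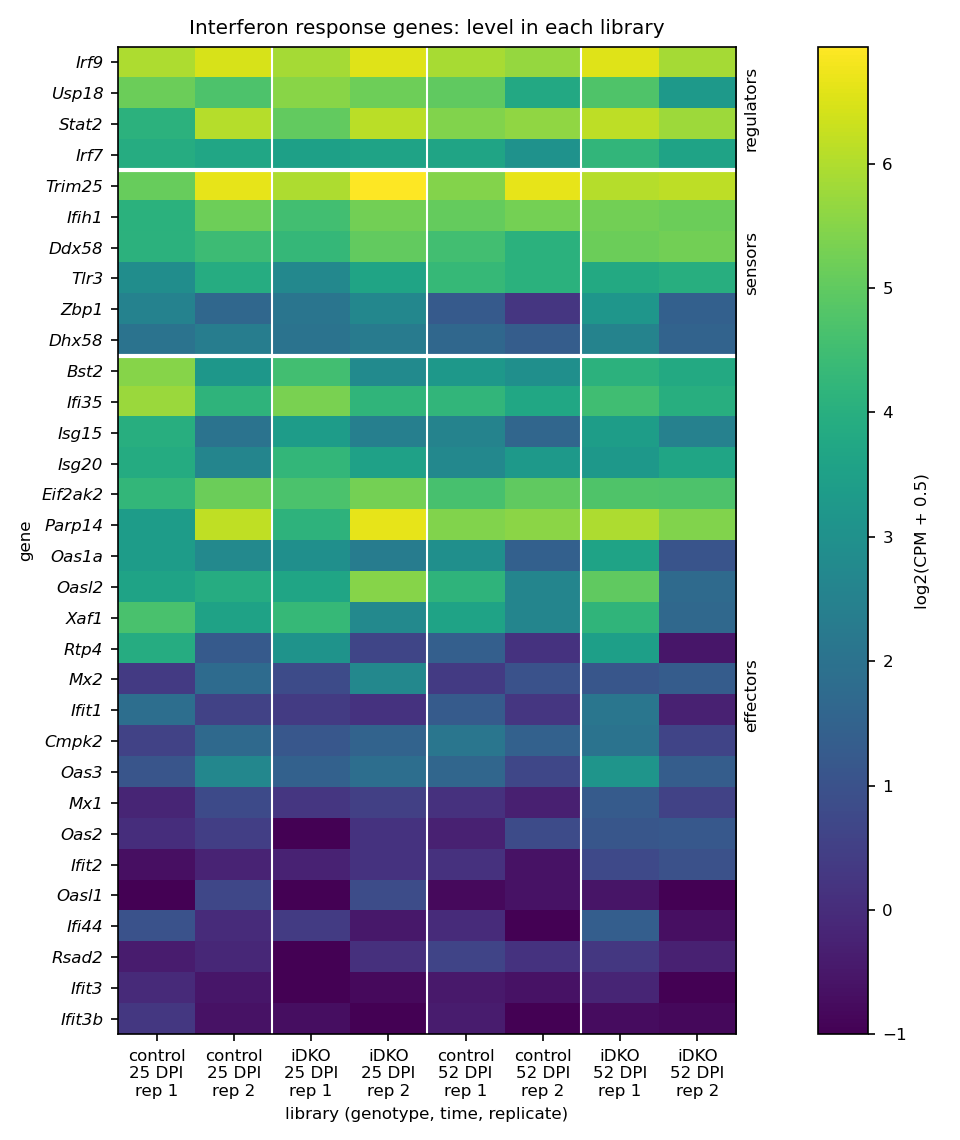
Level of the 32 genes in the 8 libraries as log2(CPM + 0.5), with genes in rows by role and libraries in columns by genotype, time and replicate. Irf9 and Trim25 were high in every column. The rows from Mx2 downward reached at most 8.35 CPM, the value of Oas3 in the iDKO 52 DPI replicate 1 library.

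No member passed the test in the comparison of the libraries labelled iDKO with control, at 25 DPI, at 52 DPI or across both times (edgeR, adjusted p under 0.05, 0 of 30 in each). The background was as low: 0 of 17839 genes (0%) were called in each of the 3 comparisons. Unadjusted p-values under 0.05 were held by 75 (0.42%), 143 (0.802%) and 130 (0.729%) genes, none of them a member. By chance alone 892 genes would be expected there, so this fit, which had no term for the pairs, was strict. Its lack of calls does not show that differences are absent. DESeq2 called 2, 1 and 8 genes, which is 0.0112%, 0.00561% and 0.0448% of those tested, again with no member. With pairs as a block in DESeq2 the calls were 103 (0.577%), 35 (0.196%) and 73 (0.409%) genes, and no member was among them. With the same block edgeR called 0, 0 and 1 gene (0.00561%).

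At 25 DPI the members lay evenly on both sides. The fold change was above 0 for 15 and below 0 for 15 of the 30, with a median log2 fold change of 0.00 over members and -0.03 over all tested genes. In the replicate 1 pair 14 members were higher and 15 lower in the library labelled iDKO, and in the replicate 2 pair 17 were higher and 13 lower. The 3 smallest p-values were those of Ifit1, Bst2 and Oasl2. Ifit1, which binds viral RNA that lacks a methylated cap, measured 3.14 and 0.993 in control against 0.798 and 0.617 CPM in iDKO. Both iDKO values were below both control values, and the log2 fold change was -1.54 (SE 1.25, unadjusted p = 0.26, adjusted p = 1, edgeR), and -0.54 without the control 25 DPI replicate 1 library. Bst2 measured 44.7 and 8.8 in control against 22.7 and 6.53 CPM in iDKO. The replicates of one group differed more than the genotypes. The log2 fold change of -0.88 (SE 0.854) became 0.67 without the control 25 DPI replicate 1 library, where control held 1 kind of library and iDKO both. With the pairs as a block it was -0.70 (SE 0.265, adjusted p = 0.731, edgeR). Oasl2, an oligoadenylate synthetase-like gene, measured 11.7 and 14.5 in control against 12.2 and 44.7 CPM in iDKO. One library carried its log2 fold change of 1.12 (SE 1.11), which was -0.10 without the iDKO 25 DPI replicate 2 library. Besides Ifit1, the groups did not overlap for Irf7, lower in iDKO, and for Usp18, higher in iDKO. These are 2 of 30 lower (6.67%) beside 5.15% of all tested genes, and 1 of 30 higher (3.33%) beside 5.39%.

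At 52 DPI more members were higher than lower in the libraries labelled iDKO, and most of this excess lay in one pair. The fold change was above 0 for 23 and below 0 for 7 of 30, with a median log2 fold change of 0.53 over members and -0.01 over all tested genes. In the replicate 1 pair 26 of the 30 were higher in the library labelled iDKO and 4 lower (Usp18, Tlr3, Cmpk2 and Rsad2), with a median log2 ratio of 0.64 against 0.00 for all tested genes, of which 50.4% were higher. In the replicate 2 pair 16 were higher and 14 lower, with a median of 0.17 against -0.03 for all tested genes. Without the iDKO 52 DPI replicate 1 library the median log2 fold change was -0.01, in a fit where iDKO at 52 DPI held 1 kind of library and control both. The summed level of the 32 genes was 618.7 CPM in that library, 426.2 CPM in its paired control, and 428.5 against 424.2 CPM in the other pair. By role, 18 of 20 effectors, 5 of 6 sensors and 3 of 4 regulators were higher in the replicate 1 pair, and 10, 3 and 3 in the replicate 2 pair.

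**Figure D2:**
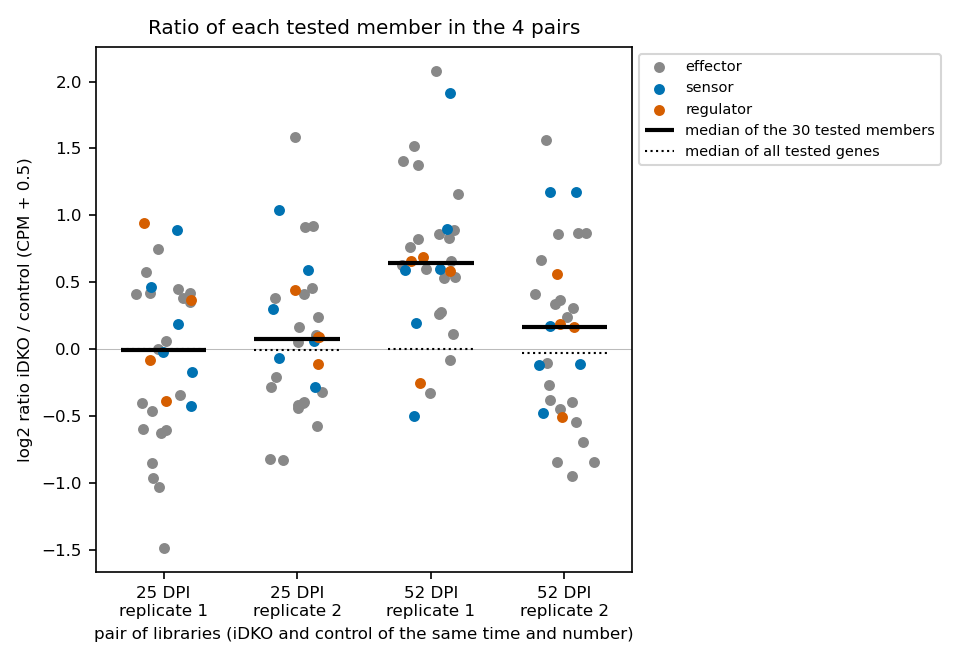
Log2 ratio of CPM + 0.5, iDKO to control, for each of the 30 tested members in the 4 pairs of libraries, with the member median (thick bar) and the median of all tested genes (dotted). The 52 DPI replicate 1 pair has its median at 0.64, while the other 3 pairs have medians of -0.01, 0.07 and 0.17.

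The 3 smallest p-values among members at 52 DPI were those of the sensors Zbp1 and Ddx58 and of the effector Mx1. Zbp1 encodes a sensor of Z-form nucleic acids that can trigger cell death. At 52 DPI it measured 1.89 and 0.705 in control against 8.51 and 2.22 CPM in iDKO, so both iDKO libraries were above both controls, while at 25 DPI it stood at 5.23 and 2.64 against 3.76 and 5.95 CPM and the groups overlapped. The log2 fold change at 52 DPI was 2.03 (SE 0.904, unadjusted p = 0.057, adjusted p = 1, edgeR), and 0.75 without the iDKO 52 DPI replicate 1 library. Ddx58 encodes RIG-I, a cytosolic sensor of viral RNA, at chr4:40203773-40239828 on the minus strand of GRCm38. It measured 16.7 and 21.4 in control against 19 and 32.4 CPM in iDKO at 25 DPI, and 22.8 and 16.4 against 34.9 and 37.5 CPM at 52 DPI. It was higher in the library labelled iDKO in all 4 pairs, and the 52 DPI groups did not overlap. Its log2 fold change was 0.88 (SE 0.478) at 52 DPI and 0.66 (SE 0.305, unadjusted p = 0.060, adjusted p = 1, edgeR) across both times, and with 1 library left out at a time the latter ranged from 0.55 to 0.86. Mx1, a dynamin-like antiviral GTPase gene, measured 0.593 and 0.313 in control against 1.95 and 0.981 CPM in iDKO at 52 DPI. These values do not overlap but are low, and the log2 fold change was 1.67 (SE 0.993, unadjusted p = 0.13, adjusted p = 1, edgeR), and 1.08 without the iDKO 52 DPI replicate 1 library. In the strand-resolved replicate 2 libraries 73.3% of the reads at Mx1 lay on the second strand, and with second-strand counts for those libraries the log2 fold change was also 1.67.

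The remaining sensors differed less. Tlr3, which senses double-stranded RNA in endosomes, was the only member lower in the library labelled iDKO in all 4 pairs (1 of 30, 3.33%, beside 6.7% of all tested genes). It measured 6.86 and 14.5 in control against 6.05 and 11.8 CPM in iDKO at 25 DPI, and 19.5 and 16.5 against 13.6 and 15.2 CPM at 52 DPI. Across both times its log2 fold change was -0.29 (SE 0.362). With the pairs as a block it was -0.28 (SE 0.179, unadjusted p = 0.16, adjusted p = 0.996, edgeR), and neither fit passed the test. Ifih1, which encodes the RNA sensor MDA5, ran from 16.3 to 38.3 CPM, and Trim25, a ubiquitin ligase gene that acts with RIG-I, from 33.3 to 122 CPM. Dhx58, which encodes the RIG-I-like helicase LGP2, ran from 2.04 to 5.34 CPM. The genotype groups of Ifih1 and Trim25 overlapped at both times.

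None of the 4 regulators passed the test. Stat2 measured 16.7 and 65.4 in control against 32.5 and 69.6 CPM in iDKO at 25 DPI, and 43.1 and 48.2 against 69.9 and 54.1 CPM at 52 DPI. It was higher in the library labelled iDKO in all 4 pairs, but its 25 DPI replicates lay further apart than the genotypes, and the log2 fold change across both times was 0.38 (SE 0.452), with 0.10 and 0.90 when control 25 DPI replicate 1 or replicate 2 was left out. Irf9 measured 61.4 and 87.4 in control against 58.1 and 93.2 CPM in iDKO at 25 DPI, and 59.3 and 50.6 against 93.7 and 57.6 CPM at 52 DPI. The groups overlapped at both times, and the log2 fold change across both was 0.24 (SE 0.32). Irf7 encodes the factor that amplifies interferon production. It measured 14.5 and 12.6 in control against 11 and 11.7 CPM in iDKO at 25 DPI, and 11.9 and 7.76 against 18.2 and 11.7 CPM at 52 DPI. Irf7 thus lay lower in both iDKO libraries at 25 DPI and higher within each pair at 52 DPI, and its log2 fold change across both was 0.17 (SE 0.344). Usp18, which removes ISG15 from proteins and damps receptor signalling, went the other way. It measured 34.9 and 26.1 in control against 45.2 and 35.7 CPM in iDKO at 25 DPI, and 31.8 and 13.2 against 26.6 and 9.16 CPM at 52 DPI, with a log2 fold change across both of 0.04 (SE 0.444). In the strand-resolved replicate 2 libraries 68.6% of the reads at Irf7 were on the second strand, and the share was 89.8% at Ifi35 and 98.3% at Usp18, while the tested members other than these and Mx1 had over 99%. Irf7 shares 45 exon bases with Phrf1 on the other strand, so part of its count may belong to that gene.

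**Figure D3:**
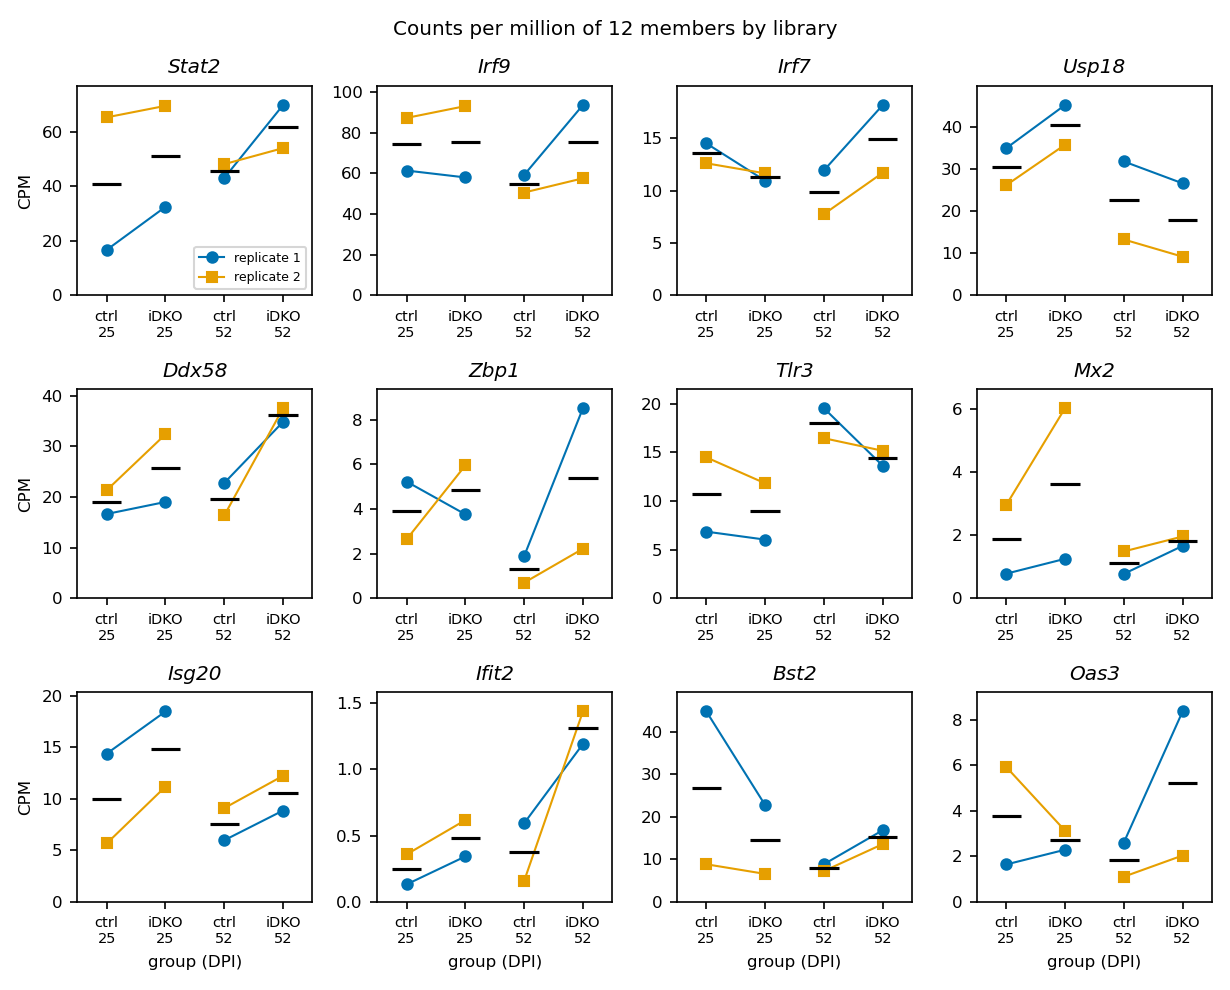
CPM of 12 members by group, with replicate 1 as circles, replicate 2 as squares, lines joining the control and iDKO libraries of the same number and time, and black bars for the mean of 2 libraries. Along all 4 lines Ddx58, Ifit2, Isg20, Mx2 and Stat2 are higher in iDKO and Tlr3 is lower, and the axes differ between panels.

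Across the 4 pairs, 5 of the 30 tested members were higher in the library labelled iDKO every time (16.7%, beside 6.73% of all tested genes): Ifit2, Isg20, Mx2, Ddx58 and Stat2. Ifit2 encodes a tetratricopeptide RNA-binding protein. It measured 0.131 and 0.357 in control against 0.342 and 0.617 CPM in iDKO at 25 DPI, and 0.593 and 0.157 against 1.19 and 1.44 CPM at 52 DPI. The 52 DPI groups did not overlap, at levels of few counts, and the log2 fold change across both times was 1.35 (SE 0.703, unadjusted p = 0.089, adjusted p = 1, edgeR). Isg20, an exonuclease gene, measured 14.4 and 5.66 in control against 18.5 and 11.2 CPM in iDKO at 25 DPI, and 5.97 and 9.09 against 8.86 and 12.2 CPM at 52 DPI. The groups overlapped at both times, and its log2 fold change was 0.53 (SE 0.4). Mx2 measured 0.784 and 2.96 in control against 1.25 and 6.02 CPM in iDKO at 25 DPI, and 0.778 and 1.49 against 1.66 and 1.96 CPM at 52 DPI. Its log2 fold change was 0.82 (SE 0.656), and 0.23 without the iDKO 25 DPI replicate 2 library. The longest open reading frames of Mx1 and Mx2 are identical at 82.2% of aligned bases, and those of Ifit3 and Ifit3b at 99.1%, so reads of the latter pair could be shared or lost in counting.

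At 52 DPI the 2 libraries of each genotype did not overlap for 8 members higher in iDKO (26.7%, beside 11.9% of all tested genes): Ifit2, Oas2, Mx1, Mx2, Bst2, Ddx58, Zbp1 and Stat2. Tlr3 was the 1 member lower without overlap (3.33%, beside 10.2%). In a fit with each pair as a block, 6 of 30 members had an unadjusted p under 0.05 at 52 DPI, all higher in iDKO (20%, beside 2.99% of all tested genes): Oas3, Mx1, Bst2, Ifi44, Ddx58 and Zbp1. None passed adjustment (adjusted p = 1 for Zbp1 in edgeR and 0.328 in DESeq2, both with the block). At 25 DPI the same fit gave 2 members, Parp14 higher and Bst2 lower (6.67%, beside 6.51%). Across both times it gave 6 members, all higher (20%, beside 2.9%): Ifit2, Isg20, Mx2, Ddx58, Zbp1 and Stat2, with adjusted p-values of 0.996 in edgeR. The pairs differ in cell type markers too. At 52 DPI the 4 leukocyte markers summed to 165 CPM in control and 226 CPM in iDKO in the replicate 1 pair, and to 87.2 and 395 CPM in the replicate 2 pair. The 7 T cell markers summed to 198 and 253 CPM, and to 72.3 and 396 CPM. The 6 Langerhans cell markers, antigen-presenting genes among them, summed to 824 and 1494 CPM, and to 655 and 1265 CPM. The 5 macrophage and monocyte markers summed to 34.1 and 61.5 CPM, and to 32 and 52.7 CPM. All 4 of these lists were thus higher in the library labelled iDKO in both 52 DPI pairs. Keratinocyte markers at 52 DPI summed to 49190 CPM in control and 46210 CPM in iDKO in the replicate 1 pair. In the replicate 2 pair they summed to 48340 and 27530 CPM. Fibroblast markers summed to 15.8 and 16.6 CPM, and to 16.85 and 116.6 CPM. At 25 DPI the sums in control and iDKO follow, replicate 1 pair first. Leukocyte markers had 552 and 125, then 105 and 98.6 CPM. T cell markers had 636.5 and 195, then 102 and 64.4 CPM. Macrophage and monocyte markers had 22 and 14.8, then 69.35 and 40.2 CPM. Langerhans cell markers had 1824 and 844, then 233 and 661 CPM. Of these 4 lists only the Langerhans cell list was thus higher in iDKO in a 25 DPI pair. Keratinocyte markers had 41200 and 53620, then 42520 and 42360 CPM. Fibroblast markers had 7.91 and 9.81, then 51.9 and 159.6 CPM. The part of any of these cells in the member levels was not tested.

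Several effectors differed between the replicate numbers in every group. Rtp4, a chaperone gene, measured 14.6 and 1.87 in control against 7.87 and 1.09 CPM in iDKO at 25 DPI, and 2.15 and 0.627 against 10.7 and 0.196 CPM at 52 DPI. Its ratio at 52 DPI was 2.08 on the log2 scale in the replicate 1 pair and -0.69 in the replicate 2 pair. Xaf1, a gene of apoptosis control, stood at 25 and 11.4 against 19.6 and 6.17 CPM at 25 DPI and at 11.6 and 5.64 against 17.7 and 2.68 CPM at 52 DPI. Isg15, the ubiquitin-like modifier, measured 15.3 and 3.53 in control against 9.92 and 4.86 CPM in iDKO at 25 DPI, and 5.41 and 2.59 against 10.2 and 5.1 CPM at 52 DPI. Ifi44 had at most 2.1 CPM, in the iDKO 52 DPI replicate 1 library, and no count in the control 52 DPI replicate 2 library. The other effectors covered 12.8 to 52.9 CPM for Ifi35, 1.57 to 11.7 CPM for Oas1a, 9.94 to 98.9 CPM for Parp14, an ADP-ribosyltransferase gene, and 18.6 to 38.2 CPM for Eif2ak2, which encodes the RNA-activated kinase PKR. Replicate 1 was the higher library in all 4 groups for 9 members (30%, beside 24.6% of all tested genes): Ifit1, Isg15, Oas1a, Bst2, Xaf1, Rtp4, Ifi44, Ifi35 and Usp18. Replicate 2 was higher in all 4 groups for Oas2, Mx2 and Trim25 (10%, beside 25.4%). The replicate difference went with transcript length: Spearman's rho between summed exon length and the mean log2 ratio of replicate 2 to replicate 1 was 0.50 over the 30 members and 0.49 over 14109 tested protein-coding genes. These correlations are across genes that share the same 8 libraries and are given as a description. The 15 members shorter than the median member of 4045 bases had a median log2 ratio of -0.75 and the 15 others 0.19, beside -0.42 and 0.39 for protein-coding genes split at the same length.

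**Figure D4:**
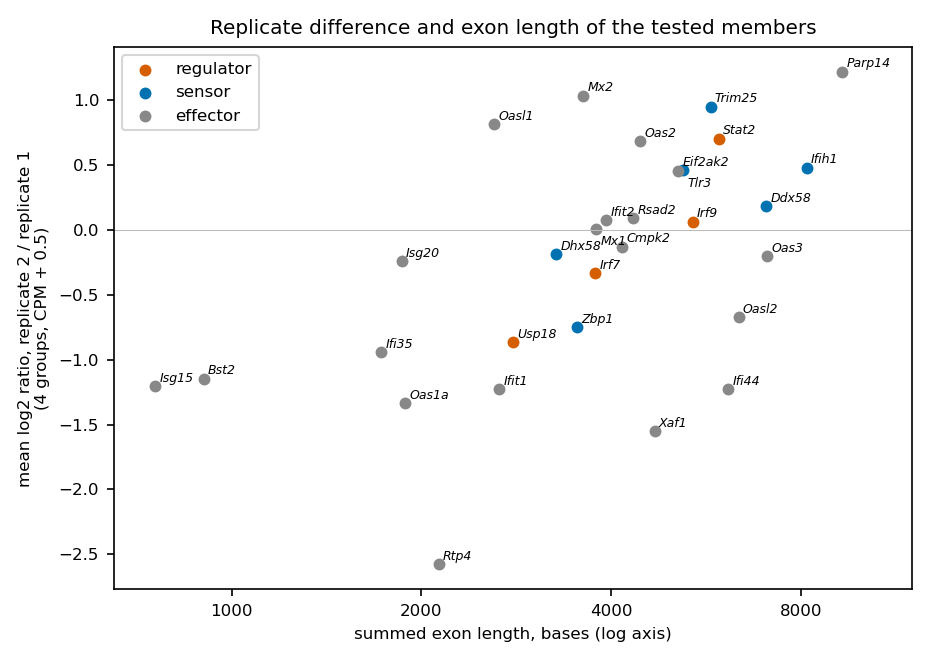
Mean log2 ratio of replicate 2 to replicate 1 over the 4 groups (CPM + 0.5) against summed exon length on a log axis, for the 30 tested members coloured by role. Rtp4, Isg15 and Bst2 are short and low, and Parp14, Trim25 and Stat2 are long and high.

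The genotype difference itself was compared between the times. No member and no gene of 17839 (0%) passed the test of the effect at 52 DPI minus that at 25 DPI in edgeR, where 139 genes (0.779%) and no member had an unadjusted p under 0.05. DESeq2 called 0 genes, and 39 (0.219%) with the pairs as a block, no member among them. With that block in edgeR 3 members had an unadjusted p under 0.05 (10%, beside 6.26%), Bst2, Ifi44 and Usp18, none of them after adjustment. The median of this difference was 0.50 over the members on the log2 scale and 0.02 over all tested genes, and it was above 0 for 18 of 30. Lower in both 25 DPI pairs and higher in both 52 DPI pairs were 5 of 30 members, Oas2, Bst2, Ifi44, Dhx58 and Irf7 (16.7%, beside 8.06% of all tested genes), and Usp18 had the opposite pattern (3.33%, beside 8.4%). Bst2 had the smallest p-value. It was lower in both 25 DPI pairs, as given above, and higher in both 52 DPI pairs, at 8.82 and 7.21 in control against 16.8 and 13.5 CPM in iDKO. The difference was 1.80 (SE 1.21, unadjusted p = 0.18, adjusted p = 1, edgeR). It was 0.25 without the control 25 DPI replicate 1 library, where control at 25 DPI held 1 kind of library. With the pairs as a block it was 1.62 (SE 0.377, adjusted p = 0.793, edgeR). Oas3, a synthetase of the second messenger that activates RNase L, measured 1.63 and 5.92 in control against 2.28 and 3.12 CPM in iDKO at 25 DPI, and 2.59 and 1.1 against 8.35 and 2.03 CPM at 52 DPI. Its difference between times was 1.97 (SE 1.36, unadjusted p = 0.19, adjusted p = 1, edgeR), and 0.61 without the iDKO 52 DPI replicate 1 library.

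**Figure D5:**
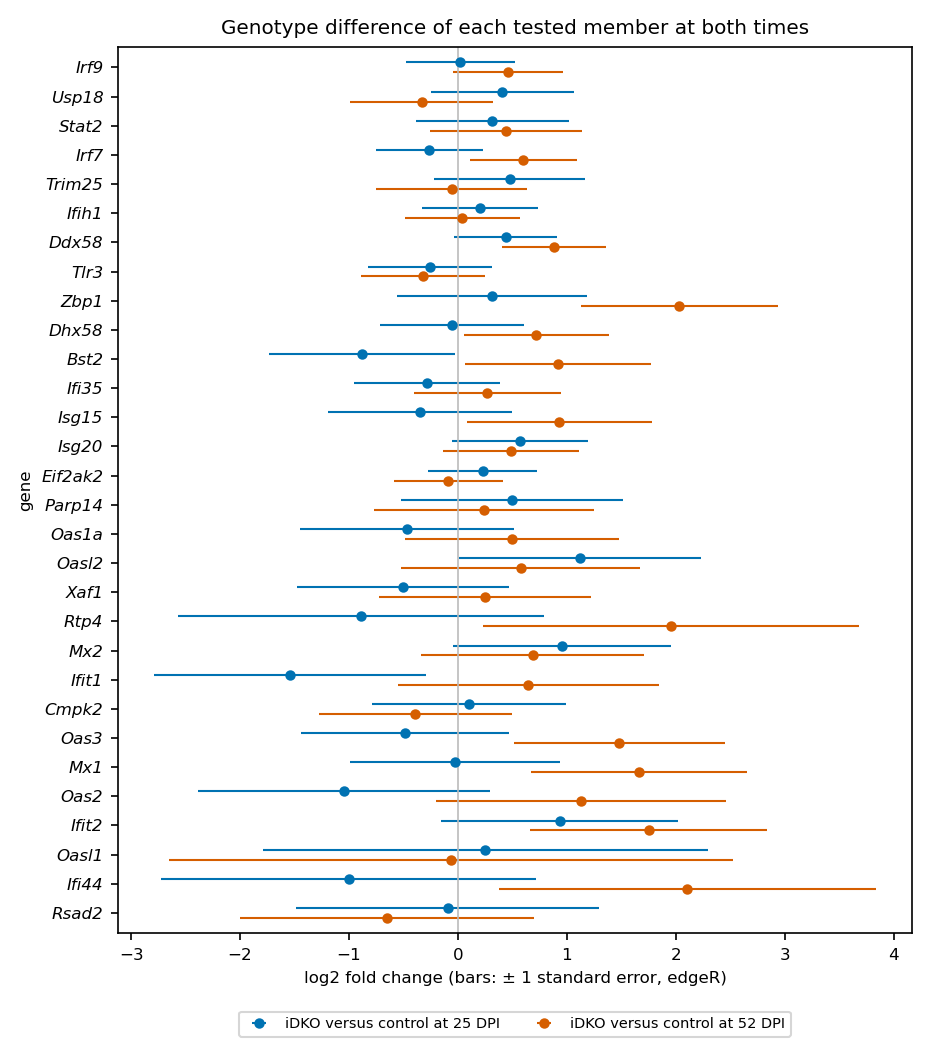
Log2 fold change, iDKO to control, of the 30 tested members at 25 DPI (blue) and 52 DPI (orange), with bars of 1 standard error from edgeR. Medians are 0.00 at 25 DPI and 0.53 at 52 DPI. The points of Zbp1, Ifi44 and Rtp4 at 52 DPI are among the farthest from 0, with standard errors of 0.904, 1.73 and 1.73.

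The comparisons of 52 with 25 DPI share their libraries with the comparisons above, and sex differs with time. No member and no gene was called in control (0%) or iDKO (0%) by edgeR, with 269 (1.51%) and 298 (1.67%) genes and no member at an unadjusted p under 0.05, and DESeq2 called 14 (0.0785%) and 11 (0.0617%) genes, none a member. In control 19 of 30 members were lower at 52 DPI (median log2 fold change -0.45, beside -0.14 over all tested genes), and the median was 0.02 without the control 25 DPI replicate 2 library. In iDKO 19 of 30 were higher (0.17, beside -0.12), and the median was -0.41 without the iDKO 52 DPI replicate 1 library. The 2 times did not overlap in control for 2 members higher at 52 DPI, Rsad2 and Tlr3 (6.67%, beside 11%), and 4 lower, Dhx58, Zbp1, Irf7 and Irf9 (13.3%, beside 9.7%). In iDKO this held for 6 higher, Ifit2, Oas2, Mx1, Ddx58, Tlr3 and Irf7 (20%, beside 11.6%), and 1 lower, Usp18 (3.33%, beside 8.75%). Bst2 in control had a log2 fold change of -1.73 (SE 0.871, adjusted p = 1, edgeR), and -0.14 without the control 25 DPI replicate 1 library. Zbp1 in control had -1.57 (SE 0.894). Usp18 in iDKO had -1.18 (SE 0.665), with both 52 DPI libraries below both 25 DPI libraries; it was -0.56 without the iDKO 52 DPI replicate 2 library and -2.13 without replicate 1 of that group. Oas2, a further oligoadenylate synthetase gene, had no count and 0.617 CPM in iDKO at 25 DPI and 1.66 and 1.77 CPM in iDKO at 52 DPI, beside 0.523 and 0.893, and 0.334 and 1.25 CPM in control. Its fitted fold change of 2.30 (SE 1.38) rests in part on the library with no count.

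Genes of the same pathway outside the 32 were read in the same fits. Of 79 listed genes with a row, 57 were tested and none was called in any genotype comparison. Across both times 40 were higher and 17 lower in the libraries labelled iDKO, with a median log2 fold change of 0.11 beside -0.02 over all tested genes. The 33 further interferon target genes were above 0 in 15 cases at 25 DPI and in 28 cases at 52 DPI, with medians of -0.24 and 0.39. The medians over all tested genes at each time are given above. These counts come from the same libraries as those of the members and were not split by pair. Of the 10 tested genes that induce interferon, 6 were higher and 4 lower at 25 DPI (median 0.17). At 52 DPI 2 were higher and 8 lower (median -0.12). Ifi47, an interferon-inducible GTPase gene, measured 17.9 and 6.57 in control against 11.5 and 12.2 CPM in iDKO at 25 DPI, and 14.1 and 2.82 against 39.6 and 5.56 CPM at 52 DPI. Its highest value was in the iDKO 52 DPI replicate 1 library, where 26 of the 30 tested members were above the paired control. Oas1c and Ifi209 had log2 fold changes across both times of -0.39 (SE 0.391) and -0.75 (SE 0.782).

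No gene of the signal relay passed the test. On the log2 scale the fold change across both times was 0.18 (SE 0.342) for the kinase gene Jak1, 0.06 (SE 0.519) for the kinase gene Tyk2 and 0.05 (SE 0.386) for Il10rb, a receptor subunit gene shared by lambda interferons. Among genes that induce interferon, Irf5 had -0.41 (SE 0.279), Traf3 0.31 (SE 0.584) and the Tlr3 adaptor gene Ticam1 -0.16 (SE 0.566). All 7 tested inhibitors lay above 0 across both times, by at most 0.28, the value of Adar, the RNA-editing enzyme gene (SE 0.655). Irf2, a repressor of interferon targets, had 0.24 (SE 0.342), and Samhd1, a nucleotide hydrolase gene, 0.16 (SE 0.394).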

How the data were processed

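The authors deposited raw read counts per gene, 1 table per library, in 3 columns for reads counted without regard to strand and on each strand. The submitters' processing notes name STAR 2.5.2a, Trimmomatic 0.35, FastQC 0.11.9, DESeq2 1.24.0 and the builds GRCm38 and mm10, without settings. The unstranded column was used. Symbols matched 54723 of 54838 identifiers (GENCODE, GRCm38).

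edgeR 4.0.16 (R 4.3.3) was run on all 8 libraries: filterByExpr, TMM, 1 mean per group (or time plus genotype), quasi-likelihood test, Benjamini-Hochberg adjustment over 17839 genes, called at adjusted p under 0.05. CPM are counts per 1000000 of TMM-scaled library size, and pair ratios add 0.5 CPM. Fits were tested on simulated data that held no difference between the replicate numbers. That test thus does not cover the difference between the kinds of library. P-values measure the spread between libraries, which may be technical in part. Alternatives were a replicate block, other scaling (RLE), no filter, second-strand counts, DESeq2 1.42.0, and each library left out.

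Same-numbered libraries deviated together in all 6 pairs of groups (correlations over genes 0.403 to 0.831), so the numbers were taken as pairs. The members and lists were chosen with earlier results of these data known. Values per library are given for the 4 regulators, members of smallest p in each comparison, members moving one way in all 4 pairs, and up to 3 genes per pathway role; other members named were chosen after their values were seen. Motifs were searched in RefSeq windows with Biopython 1.88. One gene that the naming rule covers is not reported here.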

Additional observations from a re-analysis of the deposited data

Results flagged for a closer look

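For 6 members both pairs at 25 DPI moved one way and both pairs at 52 DPI the other way. The values below are the genotype effect at 52 DPI minus that at 25 DPI on the log2 scale from edgeR, whose test of this difference no member passed (adjusted p = 1 for each, and 0.793 to 0.831 with a block for each pair). Lower and then higher in iDKO were Bst2, with 1.80, Oas2, with 2.18, Ifi44, a low-level effector gene, with 3.11, Dhx58, with 0.77, and Irf7, with 0.86. Usp18, higher and then lower, had -0.74. Dhx58 barely differed at 25 DPI, with log2 ratios of -0.02 and -0.07 in the pairs. Its ratios in the 52 DPI pairs were 0.90 and 0.17. The Bst2 value was 0.25 without the control 25 DPI replicate 1 library and 1.62 with a block for each pair. Oas2 and Ifi44 each include a library with no count. Groups of 2 libraries allow no outlier test.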

How the results depend on the processing

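No member was called in any of the 6 comparisons under the 15 alternatives, where each could be fitted, and the replicate block changed no call. The counts of members higher (5) and lower (1) in all 4 pairs were the same with other scaling, no filter and second-strand counts. The median over members at 25 DPI was 0.064 with second-strand counts. With 1 library left out at a time it ranged from -0.20 to 0.34, the 52 DPI median from -0.012 (without the iDKO 52 DPI replicate 1 library) to 0.86, and the median across both times from -0.056 to 0.41. Over the same settings Bst2 at 25 DPI ranged from -1.93 to 0.67 and Oasl2 from -0.098 to 1.82, and across both times Irf7 ranged from -0.052 to 0.31 and Usp18 from -0.21 to 0.42; why these turned was not tested. Without a turn of sign, but over wide ranges across both times, lay Stat2 (0.10 to 0.90), Irf9 (0.044 to 0.43), Isg20 (0.32 to 0.81), Mx2 (0.23 to 1.27) and Tlr3 (-0.50 to -0.037), as did Zbp1 for 52 against 25 DPI in control (-2.44 to -0.99) and Oas3 for the difference between times (0.61 to 2.73). An arm left with 1 library was assumed to vary like the other groups. Such an arm held 1 kind of library, and these fits had no term for the replicate number. The ranges thus include the difference between the kinds of library. With 2 libraries per group Zbp1 at 52 DPI was not called at a log2 fold change of 2.03 (SE 0.904). With the pairs as a block in edgeR it was 1.95 (SE 0.557) and was not called either. What limited the calls was not tested, and missing the threshold does not show that a difference is absent.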
